A study of Mus musculus with 2 samples.

Results

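The 34 S phase and replication genes followed here were chosen by name, as genes that cycling cells switch on for copying their DNA. The rule did not use their values in these lungs, but earlier results of these data were known when they were chosen. All 34 were found once among the 29004 features. They were measured in whole-lung cells of neonatal mouse pups by sequencing RNA of single cells in droplets (10x Genomics 3' v2 chemistry). The study addressed what happens in the forming lung when Hedgehog signalling is blocked after birth. All pups were Gli1CreERT2/+;R26RtdT/+, so that tamoxifen, given to all at postnatal day 1, marks cells with an active Gli1 locus with the tdTomato reporter. Pups of one group then received control IgG at day 3, those of the other the Hedgehog-blocking antibody 5E1, and lungs were taken at day 6. The lungs of 3 pups were pooled in each group and about 20000 cells were loaded, so that each condition is 1 library and no comparison has a replicate. No test was therefore made, and every interval given in parentheses is an exact 95% interval that covers counting error only.

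Before a cell divides it loads the MCM helicase onto its origins, fires the origins, and copies its DNA behind a sliding clamp while nucleotides and histones are produced in step. Most of the genes for these proteins are switched on by E2F transcription factors when the retinoblastoma proteins release them, and their transcripts peak in late G1 and S phase. In the lung of newborn mice, endothelial cells, pericytes, fibroblasts, epithelial cells and resident immune cells all still divide while the alveolar septa form.

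Promoter windows, from 250 bases before to 50 bases after the start of a gene, were held in RefSeq's table (GRCm38.p6) for 25 of the 34 genes. Each was searched on both strands for 5 E2F words (TTTCCCGC, TTTGGCGC, TTTCCCGG, TTTGGCGG and TTTCGCGC), for the CCAAT word bound by NF-Y, and for TTTGAA, the word of the cell cycle homology region. At least 1 E2F word was found in 11 of 25 genes (44.0%), beside 4.10% of all 27025 genes with such a window. CCAAT was found in 18 of 25 (72.0%), beside 41.1% of all genes, and TTTGAA in 4 of 25 (16%), beside 20.2%. The windows of the listed genes had a median GC content of 58.2%, against 52.7% over all genes. In 9 genes an E2F word lay wholly before the start, in Mcm5, Mcm6, Mcm7, Cdc6, Hells, Pola1, Clspn, Uhrf1 and Dtl. A match is a description of the letters only and says nothing of binding in these cells. The stretches around the words of 4 licensing genes and of Hells are shown because these genes return below. Each has 20 flanking bases, runs 5′ to 3′ on the gene's strand, and carries the E2F words in capitals, with overlapping words as 1 run. They lie at chr8:75109336-75109387 on the plus strand, chr1:128359725-128359835 on the minus strand, chr5:138172021-138172068 on the minus strand, chr11:98907993-98908040 on the plus strand and chr19:38930908-38930955 on the plus strand.
Mcm5: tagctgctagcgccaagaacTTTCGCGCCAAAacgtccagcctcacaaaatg
Mcm6: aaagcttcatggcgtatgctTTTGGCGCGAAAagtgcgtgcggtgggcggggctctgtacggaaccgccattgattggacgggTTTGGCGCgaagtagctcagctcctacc
Mcm7: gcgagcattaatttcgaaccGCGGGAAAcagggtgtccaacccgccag
Cdc6: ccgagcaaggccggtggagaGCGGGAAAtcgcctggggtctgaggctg
Hells: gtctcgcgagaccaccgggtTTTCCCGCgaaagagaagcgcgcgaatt
In Mcm6 3 words begin between 110 and 47 bases before the start, in Mcm5 the 2 overlapping words begin 153 and 149 bases before it, and in Hells the single word begins 62 bases before it.

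Depth was counted in unique molecular identifiers (UMIs), of which each stands for 1 captured transcript. In the IgG library 13509 cells with an annotation held 77436890 UMIs, and in the 5E1 library 9454 such cells held 58890639 UMIs, with medians of 4541 and 4636 UMIs per cell. UMIs were summed over the cells of a library, or of 1 of the authors' 23 clusters in it, and divided by all UMIs of those cells, as counts per 1000000 (CPM). Clusters were called "like" a cell type only from marker lists, and the others keep their numbers. The direct Hedgehog targets Gli1, Ptch1 and Hhip stood at 5.84, 47.1 and 85.0 CPM in the IgG library and at 0.934, 14.5 and 11.9 CPM in the 5E1 library. 184 barcodes occur in both libraries, and leaving them out moved no list ratio beyond its interval. The pups of the 2 libraries differed in sex: Y-linked transcripts gave 4 UMIs with IgG and 5009 with 5E1. Cells with an Xist UMI and none of a Y-linked gene made up 91.5% of the IgG and 24.2% of the 5E1 cells, and 29.5% of the 5E1 cells had a Y-linked UMI and no Xist. The comparison of the libraries is therefore repeated below among cells with Xist and no Y-linked UMI.

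The 34 genes together were highest in cluster 12, at 3317 CPM with IgG and 3483 CPM with 5E1, and in cluster 2, at 2837 and 3149 CPM. Cluster 12 was led by Htra1, 2810417H13Rik and the mitotic cyclin Ccnb1, with alveolar myofibroblast markers as its best list, and cluster 2 by Gzma, Nkg7 and Trbc2 of natural killer and T cells. By the mean of both libraries they were followed by pericyte-like cluster 13 (1970.0 and 1229 CPM), endothelial-like cluster 11 (1706 and 1324), B cell-like cluster 4 (1251 and 1729) and alveolar macrophage-like cluster 5 (1282 and 1245). Levels were lowest in neutrophil-like cluster 1 (359.7 and 275 CPM) and AT1-like cluster 15, the thin cells of gas exchange (368 and 283 CPM). Clusters 13, 11 and 4 came in this order in the IgG library and in the reverse order in the 5E1 library. The authors' clusters may rest in part on these 34 genes, and 2810417H13Rik is among the leading genes of cluster 12. The order is therefore a description and not a test.

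**Figure D1:**
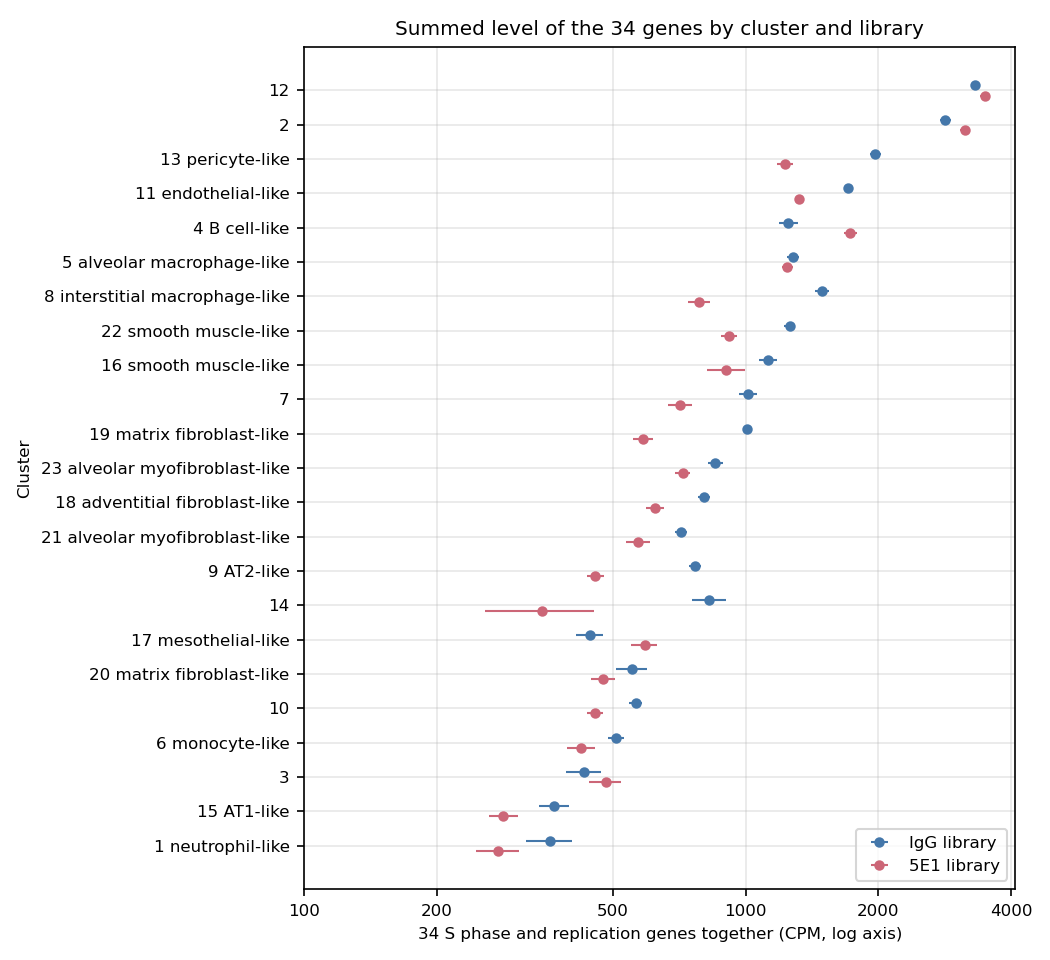
Summed level of the 34 genes (CPM, log axis) in each of the authors' 23 clusters, with the IgG library in blue and the 5E1 library in red; bars are exact 95% Poisson intervals. Clusters 12 and 2 lie above 2800 CPM in both libraries, and 18 of 23 clusters have the 5E1 point to the left of the IgG point.

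Gene by gene, 18 of the 34 had their highest mean level in cluster 12 and the other 16 in cluster 2. The licensing genes Mcm2, Mcm3, Mcm5, Mcm6, Mcm7, Cdc6 and Gmnn peaked in cluster 2, where Mcm6 reached 139 CPM against 87.5 in cluster 12, and of that group Mcm4 alone peaked in cluster 12. The nucleotide genes Tyms, Rrm1 and Rrm2 all peaked in cluster 12. Rrm2, the regulated subunit of ribonucleotide reductase, was 10.2 times as high in its highest cluster as in the median cluster. This factor was 8.41 for Cdc45, 8.23 for 2810417H13Rik, which encodes the PCNA-binding factor Pclaf, and 8.17 for the exonuclease Exo1. It was least for Usp1 (2.55), Rfc2 (2.68), Pola1 (2.95) and Tipin (2.99). Rad51ap1, of homologous recombination, had endothelial-like cluster 11 as its second highest at 40.8 CPM, Ung, the uracil glycosylase, had B cell-like cluster 4 at 37.0 CPM, and Ccne2 had pericyte-like cluster 13 at 15.9 CPM.

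**Figure D2:**
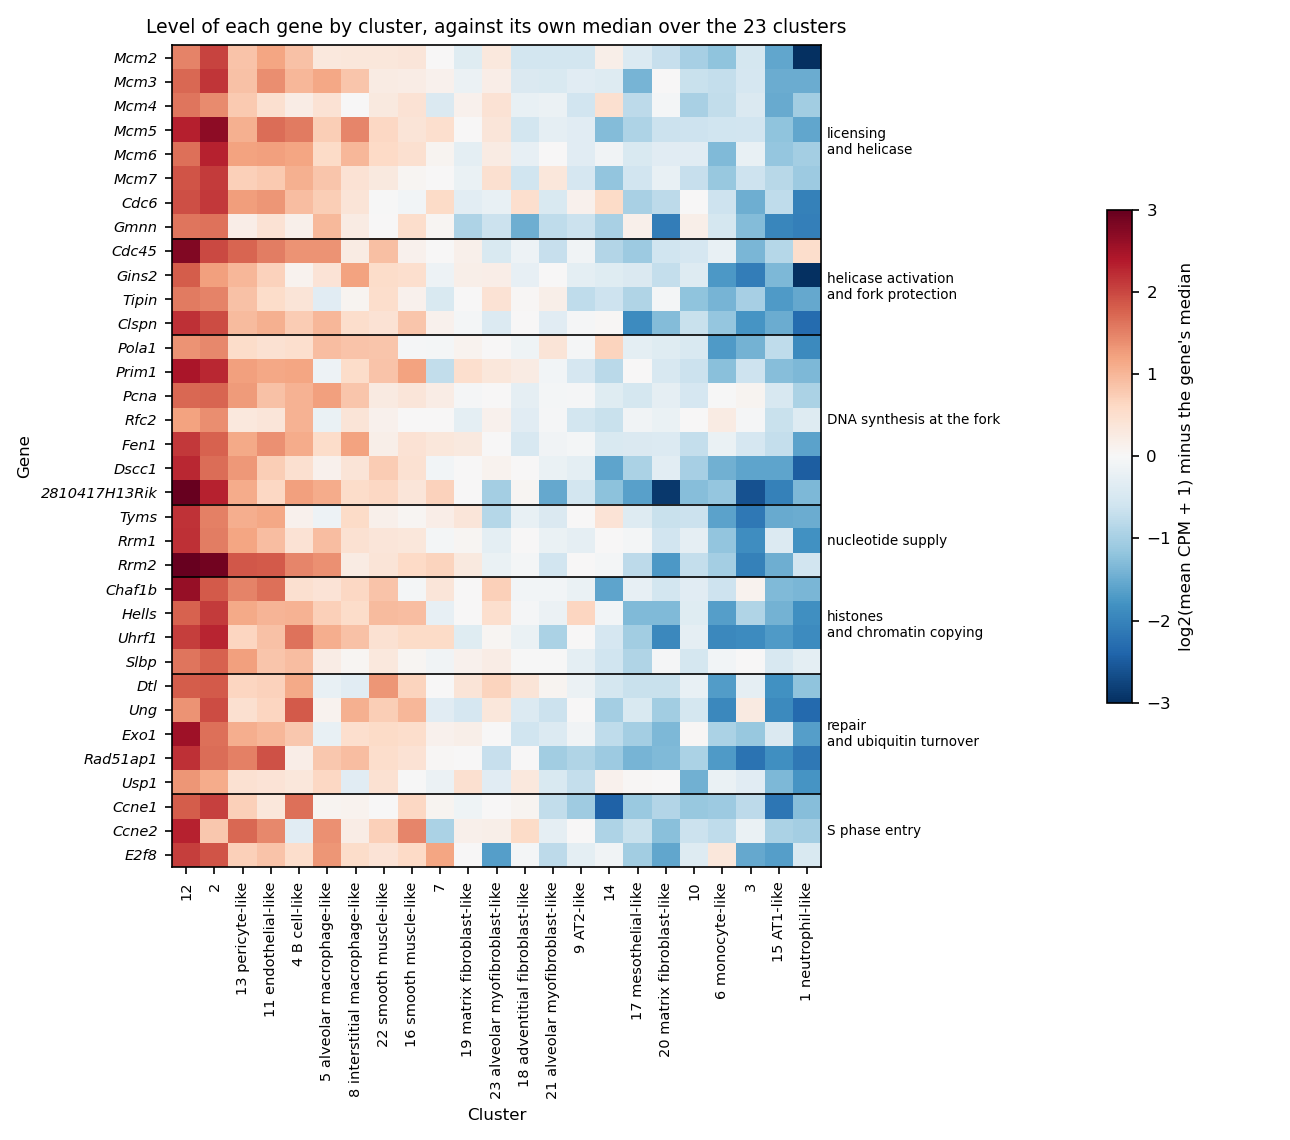
Level of each of the 34 genes (rows, grouped by role) in the 23 clusters (columns, ordered by the summed level), as log2 of the mean CPM of both libraries plus 1, minus the gene's own median over clusters; colours stop at 3 and -3. The columns of clusters 12 and 2 at the left are above the median for every gene, and those of AT1-like and neutrophil-like cells at the right are below it for nearly all.

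Across the 23 clusters each gene was compared with the sum of all 34, on log2(CPM + 1), as a description over clusters that share their library. Each gene is part of that sum, which raises its r. Pearson's r lay between 0.72 for Ccne2 and 0.95 for Clspn in the IgG library, and between 0.70 for Pola1 and 0.96 for Mcm6 in the 5E1 library. Of 9288 genes with at least 500 UMIs in each library, the 34 and those on the other cell cycle lists named below were set aside. Among the rest, the 10 most alike to the 34 in the lower of both r were Ran, Smc2, Cks1b, Ranbp1, Cenpw, Dnajc9, Apitd1, Lsm2, 2700094K13Rik and Knstrn, with r between 0.88 and 0.95. The summed 34 genes and a list of 44 G2 and M phase genes had an r of 0.89 in the IgG and 0.87 in the 5E1 library over the same 23 clusters.

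Over all cells the 34 genes together were lower after 5E1. They gave 94621 UMIs or 1222 CPM in the IgG library and 57569 UMIs or 978 CPM in the 5E1 library, a ratio of 0.80 (0.792 to 0.808). All 34 genes had the lower value in the 5E1 library, with a median log2 ratio of -0.33 (5E1 over IgG, with 0.5 UMI added to each sum), where the median of all 16689 genes with at least 20 UMIs was -0.01. Past 1.5-fold lower, the size called here, were 4 of the 34 (Dscc1, Ccne2, Cdc6 and Rrm2), beside 6.44% of all genes, and past 1.5-fold higher 0 of 34, beside 6.16%. The libraries also differed in how many cells fell in each cluster. With the IgG make-up of clusters given to both libraries the list was 1.20-fold lower, and with the 5E1 make-up 1.19-fold lower. Single genes and role groups over all cells, here and below, carry no such weighting. Among cells with Xist and no Y-linked UMI it stood at 1245 CPM with IgG and 1183 CPM with 5E1, a ratio of 0.95 (0.935 to 0.965), and 0 of 34 genes were past 1.5-fold lower, beside 7.89% of all genes in these cells. Fewer dividing cells and less of these transcripts per dividing cell cannot be told apart in summed counts.

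In the licensing group, Mcm2 to Mcm7 form the helicase ring, Cdc6 loads it and Gmnn (geminin) prevents a second loading. The 8 genes together had a ratio of 0.848 (0.830 to 0.867). Mcm6 stood at 43.3 CPM in the IgG library and 38.4 CPM in the 5E1 library, and Mcm7 at 42.0 and 38.3 CPM. Mcm5 stood at 36.5 and 29.4 CPM, Mcm3 at 36.4 and 31.1 CPM, Mcm2 at 26.8 and 23.3 CPM and Mcm4 at 23.3 and 19.4 CPM. The ring genes were thus all within a narrow band of log2 ratios, from -0.31 for Mcm5 to -0.13 for Mcm7, and Gmnn, at 54.5 and 44.1 CPM, lay within it. Cdc6, the loader, stood apart at 6.25 and 4.14 CPM, 1.51-fold lower (1.29 to 1.77).

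The genes that activate the helicase or guard the fork had a joint ratio of 0.794 (0.770 to 0.819). Cdc45, which joins MCM to make the active helicase, stood at 9.62 CPM in the IgG library and 6.52 CPM in the 5E1 library, 1.48-fold lower (1.30 to 1.67). Gins2, a subunit of the GINS complex that joins it too, stood at 31.2 and 22.6 CPM, and Clspn (claspin), which signals stalled forks, at 19.2 and 14.4 CPM. Tipin, of the fork protection complex, differed least of the 4, at 78.8 and 66.7 CPM (log2 ratio -0.24).

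Genes of DNA synthesis at the fork had a joint ratio of 0.792 (0.777 to 0.808), with members far apart. Pcna, the sliding clamp, stood at 66.0 CPM in the IgG library and 64.8 CPM in the 5E1 library, and its interval of the ratio ran from 0.941 to 1.02. 2810417H13Rik, whose product binds that clamp, stood at 153 and 106 CPM, 1.45-fold lower (1.41 to 1.498). Dscc1, which helps load the clamp for sister chromatid cohesion, was at 7.90 and 4.67 CPM and was 1.69-fold lower (1.47 to 1.96), the lowest ratio of the 34. The polymerase gene Pola1 and the primase gene Prim1 stood at 10.4 and 9.10 CPM and at 20.5 and 15.9 CPM, the clamp loader subunit Rfc2 at 65.9 and 54.9 CPM and the flap nuclease Fen1 at 26.5 and 22.8 CPM. Clamp and clamp-binding factor, read from the same cells, therefore differed between the libraries to unequal extents.

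The 3 nucleotide genes had a joint ratio of 0.710 (0.690 to 0.731). Rrm2 stood at 63.4 and 42.2 CPM (1.501-fold lower, 1.43 to 1.58), Tyms, which makes thymidylate, at 63.1 and 44.3 CPM and Rrm1, the large reductase subunit, at 43.5 and 34.2 CPM. The histone and chromatin genes had a joint ratio of 0.819 (0.795 to 0.843). Hells, a chromatin remodeller, stood at 24.3 and 16.9 CPM, Uhrf1, which brings DNA methylation to the new strand, at 20.8 and 15.7 CPM, Chaf1b of the histone chaperone CAF-1 at 19.3 and 15.7 CPM and Slbp, which binds histone mRNA, at 83.0 and 72.4 CPM. Hells was the lowest of these in ratio and Slbp the nearest to 1, at log2 ratios of -0.53 and -0.20.

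Repair and ubiquitin genes had a joint ratio of 0.860 (0.832 to 0.889). Dtl, which targets licensing factors for destruction in S phase, stood at 19.7 and 15.6 CPM, Ung at 13.5 and 10.8 CPM, Rad51ap1 at 18.9 and 15.7 CPM and Exo1 at 4.21 and 2.95 CPM. Usp1, which removes ubiquitin from PCNA, was nearest to 1 at 59.8 and 54.8 CPM. The genes of S phase entry had the lowest joint ratio of the 7 groups, 0.673 (0.626 to 0.722). Ccne1 stood at 12.4 CPM in the IgG library and 8.71 CPM in the 5E1 library, Ccne2 at 9.09 and 5.76 CPM and E2f8, a repressor among the E2F factors, at 8.26 and 5.54 CPM. The E-type cyclins drive the kinase Cdk2 at the G1 to S transition, and both were lower in the 5E1 library, Ccne2 by 1.58-fold (1.39 to 1.80).

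Split by cluster, the summed list had an interval of its ratio below 1 in 17 clusters, above 1 in 4 and including 1 in 2. It was past 1.5-fold lower in clusters 8, 9, 13, 14 and 19 and past 1.5-fold higher in none. Cluster 14 had only 67 cells and 51 list UMIs in the 5E1 library, where its level was 346 CPM against 826 CPM, and is not taken further. Among single genes, 2810417H13Rik was lower after 5E1 in 19 of 23 clusters, with the interval below 1 in 15 and above 1 in 3. Rrm2 was lower in 18 of the 22 clusters that measured it, with 12 intervals below 1 and 1 above, and Hells in 15 of 17, with 10 below and 0 above. Usp1 was lower in 18 of 23, but with 2 intervals below 1 and 5 above, and Pcna was lower in 13 of 23 with 3 below and 2 above. Genes with more UMIs have narrower intervals, so these counts also follow depth. Differences between clusters were not tested, since each has 1 value per condition.

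In pericyte-like cells of cluster 13, the mural cells of capillaries, the list stood at 1970.0 and 1229 CPM, 1.60-fold lower (1.52 to 1.69). All 34 genes were measured there and all 34 were lower: 21 of 34 genes with at least 20 UMIs were past 1.5-fold lower, beside 8.1% of all genes there, and 0 past 1.5-fold higher, beside 6.21%. The median log2 ratio was -0.66, beside 0.01 for all genes of the cluster. Ccne2 stood at 23.8 CPM in the IgG library and 7.98 CPM in the 5E1 library, 2.98-fold lower (1.59 to 5.97). Prim1 stood at 38.0 and 15.97 CPM, Ung at 19.01 and 8.597 CPM, Rrm2 at 119 and 55.9 CPM and Dscc1 at 17.1 and 7.98 CPM, all past 2-fold lower. 2810417H13Rik stood at 244 and 125 CPM and Mcm5 at 49.9 and 27.0 CPM, while Mcm3 was at 45.6 and 37.5 CPM. The 44 G2 and M phase genes differed less here, with a median log2 ratio of -0.15 and 3 past 1.5-fold lower. Among cells with Xist and no Y-linked UMI (395 and 72 cells) the list stood at 2013 and 1900.3 CPM, a ratio of 0.944 (0.872 to 1.02), and 5 of 33 genes were past 1.5-fold lower, close to the 12.9% of all genes in these cells. The 11 pericyte markers stood at 15751 and 17497 CPM, and of the other marker lists the neutrophil genes (9 genes, 1 of them at 0 in the IgG library) stood at 495 and 1484 CPM and the erythroid genes (7 genes, 2 of them at 0 in the 5E1 library) at 931 and 199 CPM. Their part in the result was not tested.

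In endothelial-like cells of cluster 11, the cluster with the most UMIs of the list over both libraries together, it stood at 1706 and 1324 CPM, 1.29-fold lower (1.26 to 1.32). All 34 genes were lower in the 5E1 library, with a median log2 ratio of -0.35 beside 0.00 for all genes, and 7 of 34 genes with at least 20 UMIs were past 1.5-fold lower, beside 5.85% of all genes there, and 0 past 1.5-fold higher, beside 3.75%. Ccne1 stood at 15.1 and 7.89 CPM (1.92-fold lower, 1.47 to 2.50), Cdc6 at 11.7 and 6.53 CPM and Ccne2 at 16.2 and 9.25 CPM. Cdc45 stood at 16.6 and 10.3 CPM, Dscc1 at 10.1 and 6.28 CPM, Rrm2 at 106 and 66.5 CPM and Tyms at 107 and 71.3 CPM. These 7 made up the genes past 1.5-fold, while Pcna (85.6 and 82.4 CPM) and Rad51ap1 (41.7 and 39.9 CPM) had intervals of the ratio that included 1. In the cells with Xist and no Y-linked UMI (1145 and 344 cells) the list stood at 1714 and 1756 CPM, a ratio of 1.02 (0.994 to 1.06), and 0 of 34 genes were past 1.5-fold lower, beside 9.08% of all genes in these cells. The lower level in this cluster was thus not seen among these cells, which were 88.6% of the IgG and 26.2% of the 5E1 cells there. The 148 IgG cells left out had a median of 1103 UMIs and 1399 CPM. The 534 5E1 cells with neither or both kinds of UMI had a median of 3037.5 UMIs and 1209 CPM. The part of this selection in the ratio was not tested. Secretory airway genes (6 genes, 2 at 0 in the IgG and 1 in the 5E1 library) stood at 2963 and 1305 CPM in the cluster and neutrophil genes (9 genes, none at 0) at 323 and 596 CPM, and their part was not tested.

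Clusters 8, 9 and 19 are described because their lists were past 1.5-fold lower, so their counts are descriptions of what chose them. In interstitial macrophage-like cluster 8 the list stood at 1489 and 786 CPM, 1.89-fold lower (1.77 to 2.03), and 25 of 30 genes with at least 20 UMIs were past 1.5-fold lower, beside 11.5% of all genes there, and 0 past 1.5-fold higher, beside 8.56%. The joint ratios of the 7 role groups ran from 0.335 (0.181 to 0.586) for S phase entry to 0.593 (0.525 to 0.670) for synthesis at the fork. Mcm2 stood at 36.6 and 12.3 CPM, Mcm5 at 70.7 and 31.3 CPM and Ung at 32.6 and 9.54 CPM, while Pcna, at 86.0 and 77.7 CPM, had a ratio of 0.903 (0.706 to 1.15). 2810417H13Rik stood at 164 and 85.8 CPM in the same cells. The 4 genes with under 20 UMIs there were Cdc6, Cdc45, Exo1 and Ccne2. With Xist and no Y-linked UMI (314 and 64 cells) the ratio of the list was 0.588 (0.527 to 0.655), with 21 of 30 genes past 1.5-fold lower, beside 14.7% of all genes in these cells. The secretory airway list (6 genes, 2 at 0 in the IgG and 1 in the 5E1 library) stood at 7947 and 1475 CPM, and its part was not tested.

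In AT2-like cluster 9, the surfactant-making cells, the list stood at 769 and 457 CPM, 1.68-fold lower (1.59 to 1.78). There 18 of 33 genes with at least 20 UMIs were past 1.5-fold lower, beside 8.45% of all genes there, and 0 past 1.5-fold higher, beside 6.48%, and all 33 were lower. Exo1 alone had under 20 UMIs. E2f8 stood at 5.79 and 1.39 CPM, Rad51ap1 at 7.79 and 2.09 CPM and 2810417H13Rik at 83.9 and 31.3 CPM, whereas Mcm4 was at 12.6 and 11.1 CPM and Rrm1 at 25.4 and 19.9 CPM. Among cells with Xist and no Y-linked UMI (628 and 103 cells) the ratio of the list was 0.613 (0.555 to 0.675), with 18 of 33 genes past 1.5-fold lower, beside 13.7% of all genes in these cells. The AT1 markers (10 genes) stood at 4019 and 5544 CPM in this cluster, and the erythroid markers (7 genes, none at 0 in either list) at 1197 and 181 CPM. Their part was not tested.

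In matrix fibroblast-like cluster 19 the list stood at 1009 and 585 CPM, 1.73-fold lower (1.63 to 1.82). There 24 of 34 genes with at least 20 UMIs were past 1.5-fold lower, beside 12.9% of all genes there, and 0 past 1.5-fold higher, beside 8.31%. All 8 licensing genes were past 1.5-fold lower, from Mcm4 (24.6 and 15.4 CPM) to Cdc6 (3.68 and 0.810 CPM). E2f8 stood at 7.58 and 1.62 CPM, Uhrf1 at 14.9 and 3.64 CPM, Hells at 20.7 and 6.07 CPM and 2810417H13Rik at 128 and 42.9 CPM. Not all genes shared this: Usp1 stood at 73.6 and 70.4 CPM and Ung at 6.496 and 6.48 CPM. The G2 and M phase genes were lower by more, with 41 of 44 past 1.5-fold and a median log2 ratio of -1.19, against -0.87 for the 34. In the cells with Xist and no Y-linked UMI (1808 and 230 cells) the ratio of the list was 0.805 (0.751 to 0.862), with 11 of 34 genes past 1.5-fold lower, beside 16.6% of all genes in these cells. The interstitial macrophage markers (7 genes, none at 0) stood at 551 and 1072 CPM in the cluster, and their part was not tested.

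In cluster 12, where the list was highest, it was close in both libraries, at 3317 CPM over 640 IgG cells and 3483 CPM over 168 5E1 cells, 1.05-fold higher (1.02 to 1.08). The clusters may rest in part on these 34 genes, so the level in cluster 12 cannot be taken as independent of how its cells were chosen. Cluster 12 held 20.9% of the list's UMIs in the IgG library and 9.81% in the 5E1 library. Of all UMIs it held 7.71% and 2.75%. Of the 34 genes, 0 were past 1.5-fold lower, beside 12.4% of all genes there, and 0 past 1.5-fold higher, beside 6.07%, and 21 were above and 13 below a ratio of 1. 2810417H13Rik, the gene with most UMIs, stood at 642 and 763 CPM and Usp1 at 109.7 and 152 CPM, while Rrm2 stood at 265 and 214 CPM and Gins2 at 85.8 and 66.0 CPM. Without 2810417H13Rik the log2 ratio of the list was 0.024. The role groups differed in unlike directions: synthesis at the fork had a joint ratio of 1.12 (1.07 to 1.18) and repair 1.19 (1.07 to 1.32), whereas nucleotide supply had 0.930 (0.862 to 1.003) and S phase entry 0.818 (0.665 to 1.001). With Xist and no Y-linked UMI required (623 and 52 cells) the ratio of the list was 0.937 (0.891 to 0.984), on the other side of 1, with 7 of 34 genes past 1.5-fold lower, close to the 18.2% of all genes in these cells. The cells called cluster 12 also differed in their other genes: smooth muscle markers (9 genes) stood at 8054 and 4304 CPM, alveolar myofibroblast markers (8 genes) at 4268 and 3139 CPM and neutrophil markers (9 genes) at 157 and 1306 CPM, and the part of these in the result was not tested.

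In cluster 2 the list stood at 2837 and 3149 CPM, 1.11-fold higher (1.07 to 1.15), and 0 of 34 genes with at least 20 UMIs were past 1.5-fold lower, beside 8.65% of all genes there, and 0 past 1.5-fold higher, beside 7.44%. Fen1 (45.4 and 63.4 CPM), Pcna (129 and 178 CPM), Uhrf1 (54.1 and 73.8 CPM) and Prim1 (47.7 and 65.0 CPM) had the higher value after 5E1, and Rad51ap1 (41.3 and 28.1 CPM) the lower. The ratio was 1.10 (1.04 to 1.16) among cells with Xist and no Y-linked UMI. Erythroid markers (7 genes, 1 at 0 in the IgG library) stood at 568 and 1929 CPM in this mixed cluster, and their part was not tested.

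B cell-like cluster 4 had the largest ratio above 1 among the 23 clusters, at 1251 and 1729 CPM, 1.38-fold higher (1.30 to 1.46). There 1 of 32 genes with at least 20 UMIs was past 1.5-fold lower, beside 10.5% of all genes there, and 8 past 1.5-fold higher, beside 7.09%. The 8 were Mcm2 (22.6 and 48.9 CPM), Mcm7 (43.7 and 81.5 CPM), Mcm5 (39.4 and 70.9 CPM), Mcm3 (33.5 and 55.6 CPM), Dtl (19.7 and 37.4 CPM), Fen1 (25.5 and 43.6 CPM), Rad51ap1 (8.75 and 14.9 CPM) and Uhrf1 (30.6 and 50.3 CPM), so that 4 of the 6 ring genes of the helicase were among them. Cdc45, at 13.8 and 9.11 CPM, was the gene past 1.5-fold lower, and Exo1 and Ccne2 had under 20 UMIs. The comparison limited to cells with Xist and no Y-linked UMI (337 and 81 cells) gave 1301 and 2384 CPM, a ratio of 1.83 (1.71 to 1.97). These cells differed in median depth, at 2783 UMIs with IgG and 6831 with 5E1. The 8 B cell markers stood at 12405 and 12748 CPM, and the 7 erythroid markers at 348 and 2411 CPM, with 2 of them at 0 in the IgG and 1 in the 5E1 library. The part of the latter was not tested.

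In alveolar macrophage-like cluster 5 the list stood at 1282 and 1245 CPM over 1019 and 1004 cells, and the interval of its ratio, 0.971 (0.929 to 1.01), included 1. There 2 of 33 genes with at least 20 UMIs were past 1.5-fold lower, beside 6.54% of all genes there, and 1 past 1.5-fold higher, beside 5.31%. The MCM genes were close in both libraries, with Mcm7 at 52.5 and 54.4 CPM and Mcm3 at 51.8 and 49.4 CPM. The called genes were Dscc1 (6.88 and 3.17 CPM) and Dtl (13.04 and 8.18 CPM) on the lower side and Chaf1b (9.78 and 16.1 CPM) on the higher. The ratio was 0.973 (0.911 to 1.04) among cells with Xist and no Y-linked UMI. The 2 macrophage clusters thus gave unlike values, 0.971 (0.929 to 1.01) in cluster 5 and 0.528 (0.493 to 0.565) in cluster 8.

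**Figure D3:**
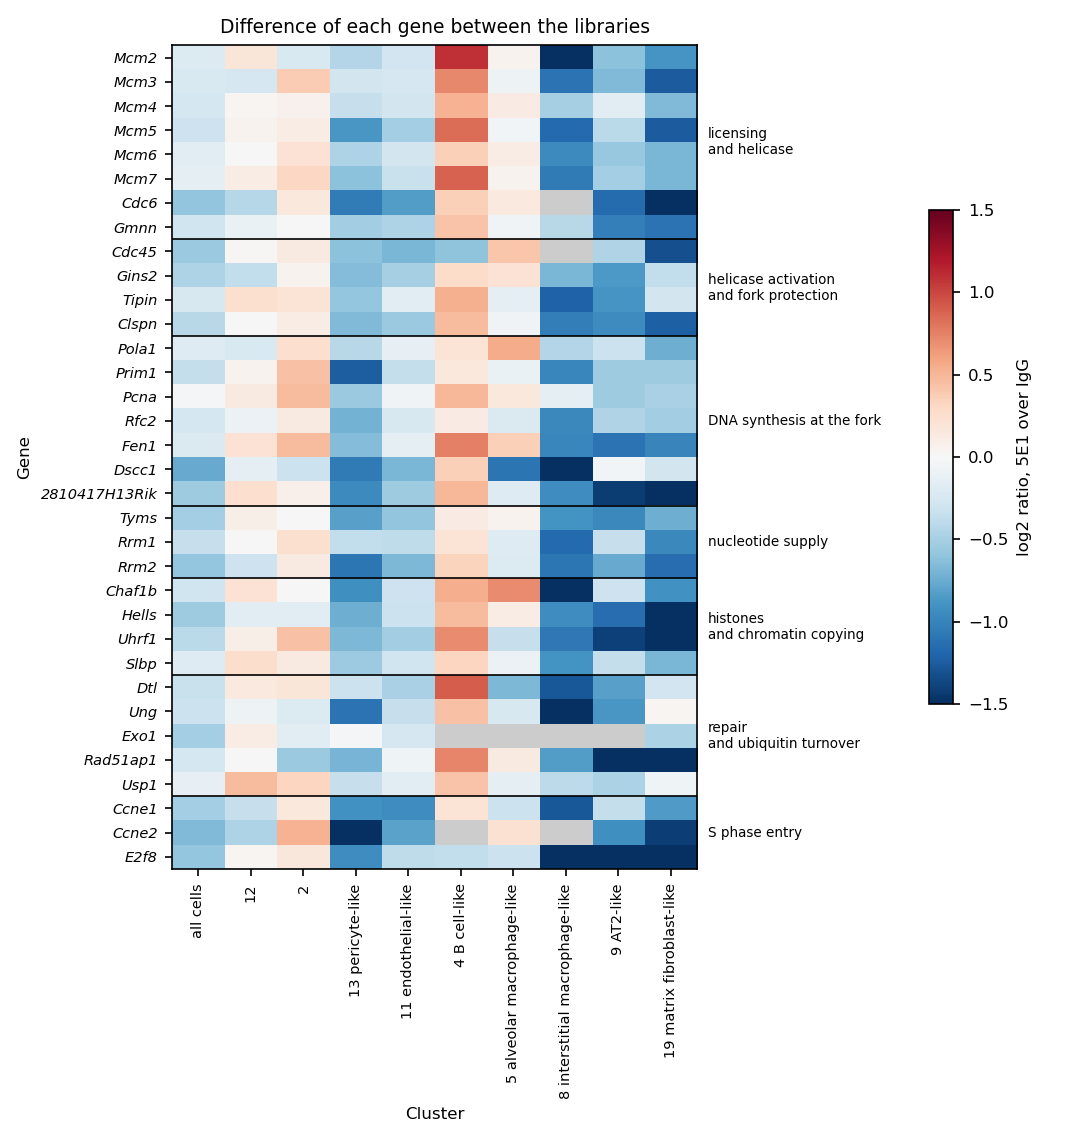
log2 ratio (5E1 over IgG) of each of the 34 genes (rows, grouped by role) over all cells and in 9 clusters (columns); colours stop at 1.5 and -1.5, and grey marks genes with under 20 UMIs. The columns of clusters 13, 8, 9 and 19 are blue for nearly every gene, that of cluster 4 is mostly red, and those of clusters 12, 2 and 5 are pale.

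The 5E1 library holds cells of both sexes, which come from different pups that got the same antibody, so it can be split by Xist and Y-linked UMIs. Within it, over all clusters, cells with a Y-linked UMI and no Xist had 959.7 CPM of the list and cells with Xist and no Y-linked UMI 1183 CPM, a ratio of 0.812 (0.796 to 0.828), about as far apart as the 2 libraries. 33 of 34 genes were lower in the cells with a Y-linked UMI. In endothelial-like cluster 11 the ratio was 0.655 (0.631 to 0.679) and 21 of 34 genes were past 1.5-fold lower, beside 4.91% of all genes in that comparison. Median depth in that cluster was 9269.5 UMIs in the cells with a Y-linked UMI and 5523.5 in those with Xist. In pericyte-like cluster 13 the ratio was 0.665 (0.599 to 0.739), in matrix fibroblast-like cluster 19 0.509 (0.441 to 0.585), in interstitial macrophage-like cluster 8 0.859 (0.740 to 0.996) and in B cell-like cluster 4 0.808 (0.746 to 0.875). In alveolar macrophage-like cluster 5 (0.997, 0.923 to 1.08), AT2-like cluster 9 (0.962, 0.854 to 1.08) and cluster 2 (1.03, 0.963 to 1.09) the intervals included 1, and in cluster 12 the ratio was 1.24 (1.16 to 1.32). Against the IgG cells with Xist, both kinds of 5E1 cells were lower in cluster 8, with a ratio of 0.588 (0.527 to 0.655) for those with Xist and 0.505 (0.450 to 0.564) for those with Y-linked UMIs. The same held in cluster 9, with 0.613 (0.555 to 0.675) and 0.589 (0.543 to 0.638). In cluster 4 both were higher, with 1.83 (1.71 to 1.97) and 1.48 (1.37 to 1.60). There the median depths were 2783 UMIs in the IgG cells with Xist, 6831 in the 5E1 cells with Xist and 3840 in those with a Y-linked UMI. The remaining 236 5E1 cells of cluster 4, with a median of 2554 UMIs, had 1194 CPM, against 1301 CPM in the IgG cells with Xist. Over the 23 clusters, the interval for 5E1 cells with Xist against IgG cells with Xist lay below 1 in 9, above 1 in 5 and included 1 in 9. Median depths over all clusters were 4782 UMIs in the IgG cells with Xist, 5226 in the 5E1 cells with Xist and 5557 in those with a Y-linked UMI. The remaining 5E1 cells, 4071 with neither and 301 with both, were shallower (median 3759.5) and had 840.4 CPM. Sex, pup and depth cannot be told apart in this split, because the labels do not tie cells to pups.

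**Figure D4:**
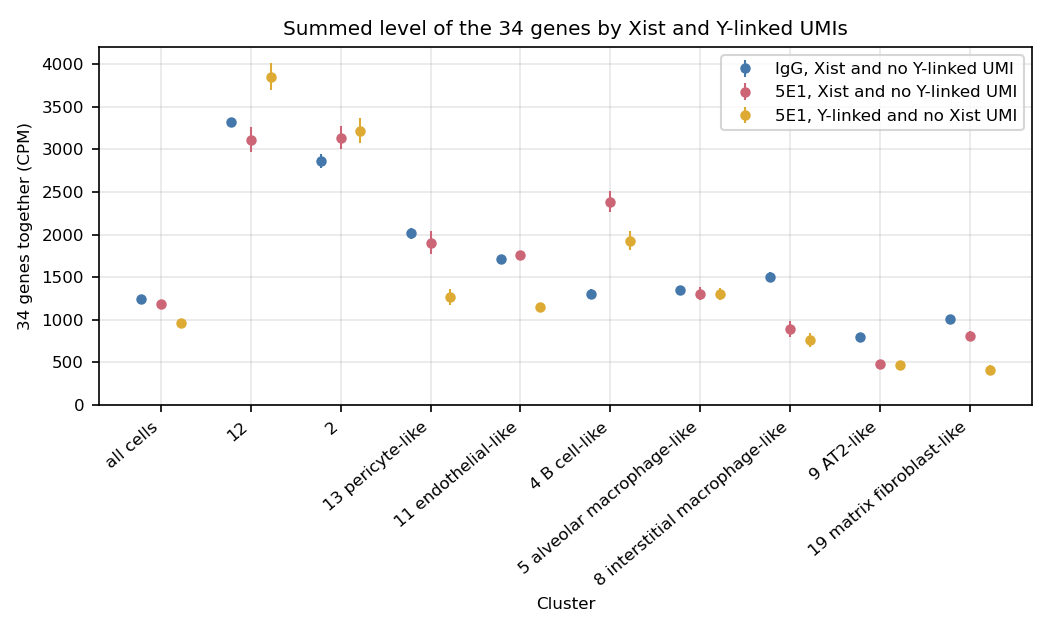
Summed level of the 34 genes (CPM) over all cells and in 9 clusters, for IgG cells with Xist (blue), 5E1 cells with Xist (red) and 5E1 cells with a Y-linked UMI and no Xist (yellow); bars are exact 95% Poisson intervals. Blue and red lie together in clusters 11 and 13 with yellow below them, whereas red and yellow both lie below blue in clusters 8 and 9.

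To see how many cells carried these transcripts, each cell was thinned to 1000 UMIs, which left out 215 IgG and 153 5E1 cells, and cells with at least 2 UMIs of the 34 genes were counted. They made up 20.2% (19.5 to 20.9) of the IgG and 15.6% (14.9 to 16.4) of the 5E1 cells, a ratio of 0.773 (0.725 to 0.824), where the interval treats numbers of cells as Poisson counts. Without thinning the shares were 57.2% and 53.4%. In neutrophil-like cluster 1, led by Ngp and Camp of maturing neutrophils, the thinned share was 6.78% (3.92 to 10.8) and 1.86% (0.808 to 3.64) at median depths of 2456 and 1964 UMIs, and in AT1-like cluster 15 4.68% (2.51 to 7.86) and 3.50% (1.97 to 5.71) at 4919 and 4093. The AT1-like share serves below as a low reference, and shares near it are not read as dividing cells. Whether free RNA gives them was not tested. The IgG neutrophil-like share is a weaker reference, as 7 of its 16 cells also had 2 or more UMIs of the G2 and M phase genes.

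In cluster 12 the share was 63.2% (59.3 to 66.9) in the IgG and 73.1% (65.7 to 79.6) in the 5E1 library, and in cluster 2 59.7% (53.3 to 65.8) and 57.1% (49.9 to 64.2). It was 31.9% (27.5 to 36.6) and 20.3% (16.04 to 25.1) in pericyte-like cluster 13, and 30.7% (28.1 to 33.4) and 25.7% (23.3 to 28.3) in endothelial-like cluster 11. In interstitial macrophage-like cluster 8 it was 28.8% (23.9 to 34.05) and 14.1% (9.91 to 19.2), and in matrix fibroblast-like cluster 19 15.7% (14.05 to 17.4) and 8.82% (6.58 to 11.5). The share in AT2-like cluster 9 was 14.2% (11.7 to 17.1) and 7.30% (5.19 to 9.92), and the latter interval overlaps that of the AT1-like cells of the same library. B cell-like cluster 4 had 14.4% (11.01 to 18.4) and 21.8% (17.998 to 26.1), and alveolar macrophage-like cluster 5 had 25.6% (22.9 to 28.4) and 24.0% (21.4 to 26.7). By the same Xist limit the shares in cluster 11 were 31.0% and 33.1%, and in cluster 13 33.1% and 30.6%. They were 28.8% (23.9 to 34.2) and 23.4% (13.8 to 35.7) in cluster 8, where the intervals overlapped. In cluster 9 they were 15.3% and 5.83%, in cluster 19 15.4% and 9.57%, and in cluster 4 14.1% and 34.6%. Cluster 12 had 63.2% and 67.3%, cluster 2 59.8% and 46.0%, and cluster 5 26.6% and 23.4%.

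The same cells were also asked for 2 or more UMIs of the 44 G2 and M phase genes, since transcripts of both lists overlap late in the cycle. All shares in this paragraph are of the cells counted for the list, not of all cells. Over all clusters, 45.7% (43.8 to 47.6) of the IgG and 41.4% (38.8 to 43.9) of the 5E1 cells counted for the list had both. In cluster 12 it was 72.7% (68.1 to 77.0) and 81.1% (73.1 to 87.7), and in cluster 11 49.7% (44.5 to 54.9) and 39.9% (34.5 to 45.5). In matrix fibroblast-like cluster 19 it was lower after 5E1, at 40.3% (34.7 to 46.2) and 14.6% (6.07 to 27.8). In alveolar myofibroblast-like cluster 23 it was 17% (10.2 to 25.8) and 4.92% (1.03 to 13.7). There the intervals overlapped and the 5E1 value rests on 3 of 61 cells. Not all clusters were lower: cluster 2 had 54.7% (46.3 to 62.9) and 68.8% (59.3 to 77.2). Cluster 8 had 41.3% (31.1 to 52.1) and 42.4% (25.5 to 60.8). At this thinned depth, cells counted for the list held a mean of 3.79 of its UMIs with IgG and 3.65 with 5E1.

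**Figure D5:**
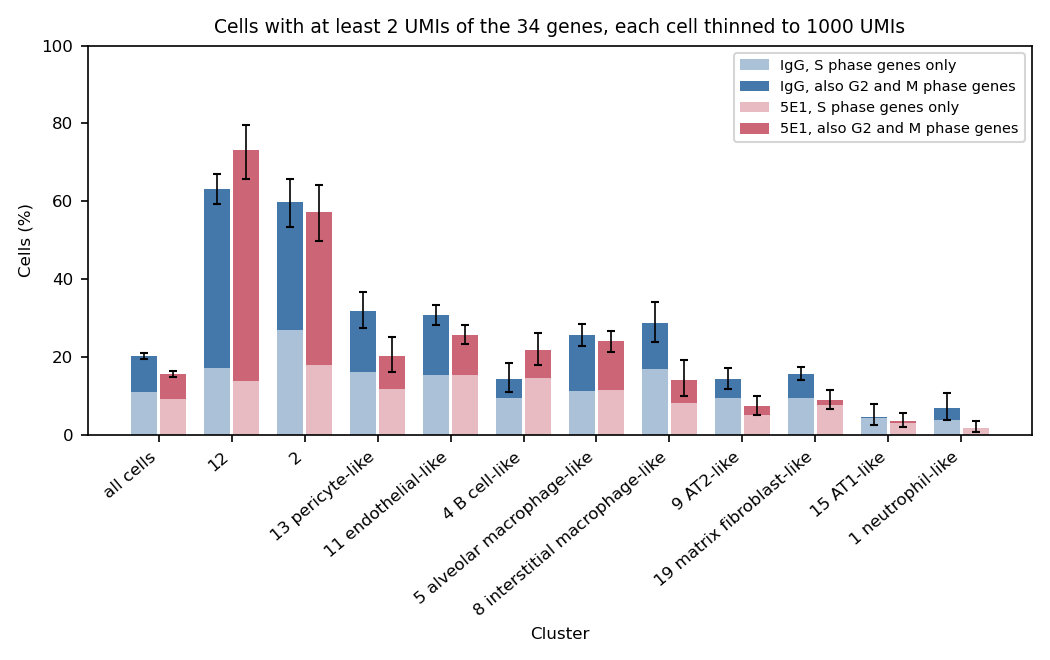
Share of cells (%) with at least 2 UMIs of the 34 genes after thinning each cell to 1000 UMIs, over all cells and in 11 clusters, for the IgG (blue) and 5E1 (red) libraries; the dark part also has 2 or more G2 and M phase UMIs, and bars are exact 95% Clopper-Pearson intervals of the whole share. Clusters 12 and 2 exceed 55% in both libraries, and AT1-like and neutrophil-like cells stay under 7%.

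Over all genes 6.44% were past 1.5-fold lower and 6.16% higher, and the counts in the following lists are to be read beside these shares. Beyond the 34, 48 other replication genes had a median log2 ratio of -0.28 over all cells, with 4 past 1.5-fold lower and 0 higher. Gins1 and Gins3, partners of Gins2, stood at 7.61 and 4.89 CPM and at 5.93 and 3.68 CPM. Replication-dependent histone mRNAs mostly lack the poly(A) tail that 3' chemistry captures, and their near-identical copies can share reads. Of 15 such genes 3 were past 1.5-fold lower and 0 higher, and Hist1h2ap stood at 36.1 and 19.3 CPM. The 16 E2F and RB genes that switch the program on and off had a median of -0.10 and 0 past 1.5-fold either way, with Rb1 at 11.4 and 14.1 CPM. All 44 G2 and M phase genes were lower over all cells, with a median of -0.38, and 3 were past 1.5-fold. The 12 D cyclins, CDKs and inhibitors had a median of 0.01 and 0 past 1.5-fold.

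In cluster 12, where the 34 genes were nearly level, some other genes of the cell cycle program were not. Cyclin D1 (Ccnd1), which carries growth signals into the cycle, stood at 76.5 and 30.8 CPM there, and the CDK inhibitor Cdkn1a at 27.3 and 54.3 CPM. Of the 44 G2 and M phase genes, 40 were higher in the 5E1 library, and the share of all genes that were higher was not counted. Highest in ratio were Mki67 (136 and 206 CPM), Ckap2 (74.2 and 122 CPM) and Ncapd2 (54.3 and 88.8 CPM), and lowest Gtse1 (19.1 and 10.5 CPM). Together the 44 stood at 6361 and 8109 CPM. Among cells with Xist and no Y-linked UMI they stood at 6386 and 7295 CPM. The 48 other replication genes had a median log2 ratio of 0.03, near the 0.03 of the 34, with Rpa1, of the single-strand binding complex, at 99.3 and 68.5 CPM and the histone chaperone Asf1b at 49.7 and 68.5 CPM.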

How the data were processed

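The deposited files hold UMI counts per gene and cell and a table of the authors' clusters, whose header is shifted by a column. Counts came from Cell Ranger 3.1.1 on mm10 per the submitters' processing notes, while the matrices' own header, per the file headers, names version 3.0.0. Annotated cells were used as deposited, with filters not given in the sources used here. Counts were summed per library and cluster and scaled to 1000000 with Python 3.11.15, NumPy 2.4.6, pandas 2.3.3 and SciPy 1.17.1, and figures were drawn with Matplotlib 3.10.9. Ratios have exact conditional binomial intervals, levels exact Poisson and shares Clopper-Pearson intervals, checked on simulated data. A gene was measured with 20 or more UMIs over both libraries, and 1.5-fold was the size called. Clusters were called after a cell type from marker lists among their leading 10 genes. No doublet caller was run, and leaving out cells above the 99th UMI percentile was an alternative. Members and lists were chosen with earlier results of these data known. All 34 genes could be named; clusters in detail were the 6 with the highest list level among those with 100 cells in each library, and clusters 8, 9 and 19 were added after their ratios were seen, as were the cluster make-up and the split of the 5E1 library by Xist. From other lists the 3 highest and 3 lowest ratios could be named. Alternatives were the fold, the UMI minimum, median-ratio scaling, thinning depth and seed, shared barcodes, the member with most UMIs and cells with Xist.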

Additional observations from a re-analysis of the deposited data

Results flagged for a closer look

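The list was lower after 5E1 in most clusters, and 4 clusters stood on the other side of 1 with their whole interval. The ratio of 5E1 over IgG was 1.11 in cluster 2, 1.38 in B cell-like cluster 4, 1.05 in cluster 12 and 1.33 in mesothelial-like cluster 17. With 1 library per condition, the difference between these clusters and the others was not tested. Among cells with Xist and no Y-linked UMI the ratio was 1.10 (1.04 to 1.16) in cluster 2, 1.83 (1.71 to 1.97) in cluster 4 and 1.205 (1.04 to 1.40) in cluster 17, and 0.937 (0.891 to 0.984) in cluster 12, which thus moved below 1. In cluster 4 the cells so limited had median depths of 2783 UMIs with IgG and 6831 with 5E1.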

How the results depend on the processing

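Of the recomputed values, 179 stayed within the interval of the reported ratio or within 1.5 times the reported count, 69 moved further and 4 changed the direction of a ratio whose interval left out 1. Clusters are given by number in parentheses after each value, log2 ratios are 5E1 over IgG, and counts are of the 34 genes. Shares of all genes were counted at 1.5-fold and 20 UMIs only, and among cells with Xist only for lower genes in some clusters. The other counts below have no such share beside them. They show how a setting moves the count and not how the 34 stand against all genes. Among cells with Xist and no Y-linked UMI the log2 list ratio was -0.074 (all cells), -0.094 (12), -0.083 (13), 0.035 (11), 0.87 (4), -0.77 (8), -0.31 (19), the log2 share ratio was -0.13 (all cells), -0.11 (13), 0.10 (11), 1.30 (4), -0.30 (8), genes past the fold lower numbered 0 (all cells), 7 (12), 5 (13), 0 (11), 0 (4), 11 (19) and genes past the fold higher numbered 1 (12), 22 (4), 3 (5), 1 (19). At a looser size (a log2 ratio of 0.32) genes past the fold lower numbered 17 (all cells), 4 (12), 1 (2), 20 (11), 2 (4), 30 (9) and genes past the fold higher numbered 1 (12), 7 (2), 22 (4), 4 (5). At 2-fold genes past the fold lower numbered 0 (all cells), 6 (13), 0 (11), 0 (4), 1 (5), 15 (8), 8 (9), 13 (19) and genes past the fold higher numbered 1 (4), 0 (5). With at least 1 list UMI the log2 share ratio was -0.16 (all cells), -0.20 (13), -0.38 (8), -0.35 (9), -0.23 (19). Over genes with at least 100 UMIs genes past the fold lower numbered 12 (13), 0 (4), 0 (5), 13 (8) and genes past the fold higher numbered 0 (5). Over genes with at least 5 UMIs genes past the fold higher numbered 2 (5). With the IgG cluster make-up the log2 list ratio was -0.26 (all cells). With the 5E1 cluster make-up the log2 list ratio was -0.25 (all cells). With median-ratio scaling genes past the fold lower numbered 2 (all cells), 1 (2). Thinned to 1000 UMIs the log2 list ratio was 0.15 (12), 0.050 (2), -0.58 (13), -0.29 (11), 0.35 (4), -0.57 (19). Thinned to 2000 UMIs the log2 share ratio was -0.28 (all cells). Unthinned the log2 share ratio was -0.10 (all cells), -0.20 (13), 0.0027 (11), -0.37 (8), -0.21 (9), -0.31 (19). Without 2810417H13Rik the log2 list ratio was -0.29 (all cells), 0.024 (12), -0.70 (19). These changes of direction were those of the list ratio in clusters 12 and 11 and of the share ratio in cluster 11 among cells with Xist and no Y-linked UMI, and of the unthinned share ratio in cluster 11. Their cause was not tested. Ratios whose interval included 1 also crossed it: the list ratio of cluster 5 thinned (0.015), its share ratio unthinned (0.15) and with at least 3 list UMIs (0.0052), and the share ratio of cluster 2 with at least 3 list UMIs (0.11) and in a second draw (0.0096). The following alternatives moved no ratio out of its reported interval: leaving out cells above the 99th UMI percentile or with shared barcodes, asking for at least 3 list UMIs, and a second draw of the thinning. Depth limits Exo1, Cdc6 and Cdc45 most, which reached 20 UMIs in 7, 10 and 12 of 23 clusters. No paired analysis was possible because each condition has 1 library.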

Other observations

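In mesothelial-like cluster 17, the lining of the lung surface, the list stood at 443 and 590.5 CPM, and single genes had few UMIs. 2810417H13Rik stood there at 13.3 and 40.3 CPM (25 and 58 UMIs), Rrm2 at 6.38 and 20.1 CPM (12 and 29 UMIs) and Mcm2 at 7.97 and 20.1 CPM (15 and 29 UMIs), while the widely seen Rfc2 stood at 53.1 and 44.5 CPM and Tipin at 36.1 and 32.0 CPM.

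In smooth muscle-like cluster 22 the list stood at 1258 and 918 CPM, 1.37-fold lower (1.30 to 1.44), and all 33 genes with at least 20 UMIs were lower after 5E1. The share of all genes that were lower in this cluster was not counted. Cluster 7, not described further, had a list 1.43-fold lower (1.32 to 1.54). Cdc45 stood at 12.6 and 3.82 CPM, Hells at 35.98 and 17.2 CPM, Mcm5 at 38.3 and 18.4 CPM and Mcm2 at 32.8 and 16.1 CPM. Usp1 was nearest to 1, at 72.0 and 68.8 CPM. In alveolar myofibroblast-like cluster 23 the list was 1.18-fold lower (1.12 to 1.251), with Uhrf1 at 17.5 and 8.47 CPM and, on the other side of 1, Pola1 at 5.82 and 9.32 CPM. Limited to cells with Xist and no Y-linked UMI, the ratio of the list was 0.770 (0.709 to 0.835) in cluster 22 and 0.945 (0.859 to 1.04) in cluster 23, where the interval includes 1.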
